A study of Homo sapiens with 40 samples.

Results

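The comparison of RNA bound to streptavidin beads with the RNA put onto them, in cells whose peroxidase sat in the mitochondrial matrix and whose new RNA carried 6-thioguanosine (s6G), rests on 4 of the 40 libraries of the series. These are MITO s6G enriched replicates 1 and 2 and MITO s6G input replicates 1 and 2, chosen by their titles and paired by replicate number. All came from HEK293T, a human embryonic kidney line, expressing the engineered peroxidase APEX2 with a matrix targeting sequence (MITO). Cells took up 100 µM s6G over 5 h, biotin-phenol at 0.5 mM joined the medium for the final 30 min, and 1 mM hydrogen peroxide then acted for 1 min. The same construct was used in 3 further arms of 2 pairs each. The s4U arm had 4-thiouridine at the same dose and time, the APEX-only arm had biotin-phenol and peroxide without a thionucleoside, and the unlabelled arm had peroxide alone. For the same s6G protocol, values are also given from APEX2 at the nuclear lamina (LMNB1), in the cytosol (NES) and at the endoplasmic reticulum membrane (ERM). Nothing in the labels says whether the MITO line is a clone or how the biological replicates were separated, so p-values measure the spread between these samples.

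APEX2 turns biotin-phenol into a radical that lives briefly and tags molecules near the enzyme. The matrix is closed to it by the inner mitochondrial membrane. Human mitochondrial DNA (mtDNA) is a small circle transcribed in long precursors. These are cut into mRNAs for 13 subunits of the respiratory chain and ATP synthase, 2 rRNAs for the mitochondrial ribosome and 22 tRNAs. Below, each of the 13 protein-coding genes is counted as an mRNA, also where neighbours overlap, so these counts are of genes and not of separate molecules. Every other mitochondrial protein is made from a nuclear gene and imported.

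The 4 libraries held 3514076 and 3563220 counts (inputs) and 4073107 and 3678046 counts (enriched), against 123341 and 842177 in the enriched unlabelled libraries. Of 9 genes listed as expressed by HEK293T, all were detected, with a summed level of 872 and 1134 CPM (counts scaled to a common library size) in the inputs and 657 and 760 CPM after enrichment. Of 14 markers of other cell types, 10 were at 0 in all 4 libraries, among them PTPRC, CD3E, CD68, HBB, INS and CDH5, and the list summed to between 1.23 and 5.33 CPM. Levels below are CPM after TMM scaling. Folds are edgeR quasi-likelihood estimates with a replicate block, given as log2 fold change ± SE (n = 2 pairs). They were called at a Benjamini-Hochberg adjusted p of 0.05. The SE comes from 1 fit of all 4 MITO arms and does not measure the spread of the 2 s6G pairs alone. MT-ND1, for example, had log2 differences of 3.04 and 4.87 in the 2 pairs and an SE of 0.51.

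RNA encoded by mtDNA made up 5.54% and 5.90% of counts in the inputs and 36.1% and 58.2% in the enriched libraries. The mean rose from 5.72% ± 0.255 to 47.2% ± 15.7 (SD, n = 2). The difference was 30.5 percentage points in pair 1 and 52.3 in pair 2, and the groups did not overlap. An exact permutation test of 2 libraries against 2 cannot go below p = 0.33, the value obtained, and the exact test within 2 pairs cannot go below 0.5. In the unlabelled arm the share went from 5.48% to 4.09% in pair 1 and from 4.81% to 9.53% in pair 2. It reached 26.3% and 38.8% in the s4U arm and 39.8% and 34.2% in the APEX-only arm. With s6G and the enzyme elsewhere, mtDNA RNA lost share in every pair. Enriched libraries held a mean of 1.92% for LMNB1 (2 pairs), 1.82% for NES (2 pairs) and 1.77% for ERM (4 pairs), from inputs of 5.25%, 6.52% and 7.47%.

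**Figure D1:**
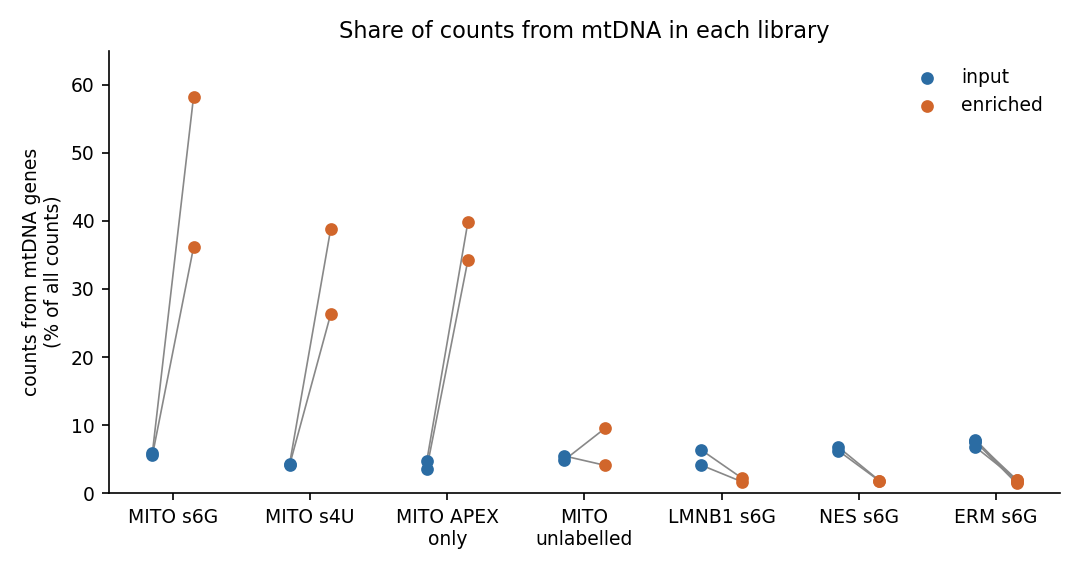
Share of all counts that came from mtDNA genes, in percent, for each library; a grey line joins the input (blue) and the enriched library (orange) of a pair. The MITO s6G libraries rise from 5.54% and 5.90% to 36.1% and 58.2%, the unlabelled pairs end at 4.09% and 9.53%, and all LMNB1, NES and ERM pairs fall.

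Of 37 mtDNA genes in the table, 19 passed the filter on low counts, and 17 of these were called higher, beside 3.48% of the 15151 genes tested. No mtDNA gene was called lower. Of the 13 mRNAs, 12 were called, with a median log2 fold change of 3.74 (range 3.03 to 4.24), beside a median of 0.01 over all tested genes. The median was 3.05 in pair 1 and 4.39 in pair 2, so the second pair showed the larger change. Without the replicate block all 13 mRNAs were called.

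MT-CO1, the catalytic core subunit of complex IV (MT:5904-7445), stood at 11332 and 11225 CPM in the inputs and at 165579 and 272341 CPM after enrichment. Its log2 fold change was 4.24 ± 0.47 (edgeR adjusted p = 8.4e-11). The other complex IV mRNAs followed, MT-CO2 with 3.74 ± 0.40 and MT-CO3 with 3.86 ± 0.41. MT-CO2 went from 5279 and 5645 CPM to 43734 and 122249 CPM, and MT-CO3 from 4425 and 5242 CPM to 44290 and 110873 CPM. In each of the 3 the enriched libraries lay far above both inputs and replicate 2 was the higher.

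Complex I takes 7 subunits from mtDNA genes, and 6 of these genes were called. MT-ND6, the only mRNA encoded on the opposite strand of the circle, rose from 1071 and 830 CPM to 10596 and 22639 CPM (log2 fold change 4.04 ± 0.35). MT-ND2 gave 4.01 ± 0.43, MT-ND1 3.96 ± 0.51, MT-ND5 3.71 ± 0.38, MT-ND4 3.55 ± 0.42 and MT-ND3 3.53 ± 0.32. MT-ND4L stood at 489 and 494 CPM in the inputs and at 3266 and 5749 CPM after enrichment, a separation like that of its neighbours. Its log2 fold change of 3.14 ± 0.77 did not pass with the block (edgeR adjusted p = 0.096) and passed without it (0.040). The annotated MT-ND4L and MT-ND4 overlap by 7 bp.

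MT-CYB, the complex III subunit cytochrome b, rose from 4738 and 4337 CPM to 40903 and 90675 CPM (3.75 ± 0.40). For ATP synthase, MT-ATP6 had a log2 fold change of 3.11 ± 0.39 and MT-ATP8 3.03 ± 0.27, the lowest values among the called mRNAs. The 2 genes overlap by 46 bp, and reads in the overlap cannot be assigned to either gene. MT-ATP8 had 206 and 314 CPM in the inputs and 1316 and 3284 CPM after enrichment.

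Both rRNAs were called. MT-RNR2, the large-subunit rRNA (MT:1671-3229), went from 3491 and 4729 CPM to 45266 and 176175 CPM (log2 fold change 4.46 ± 0.45, edgeR adjusted p = 2.8e-10). MT-RNR1, the small-subunit rRNA (MT:648-1601), went from 934 and 960 CPM to 7037 and 23345 CPM (3.76 ± 0.35). Of the 22 tRNA genes, 16 had no count in any of the 4 libraries, and 4 were tested. MT-TP (proline) rose from 27.3 and 39.0 CPM to 351 and 867 CPM (4.10 ± 0.27). MT-TC (cysteine) had 0 counts in both inputs and 25 and 41 in the enriched libraries, at least 20.5-fold higher when the inputs are set at a floor of 3 counts per library. MT-TY (tyrosine) had 0 and 1 counts in the inputs and 14 and 41 after enrichment and was called. MT-TF (phenylalanine), with 0 and 1 counts in the inputs and 1 and 12 after enrichment, was not (edgeR adjusted p = 0.062). Like MT-ND6, the 3 called tRNA genes are encoded on the strand with fewer genes, and with the strand setting of the counting unknown their counts may hold reads from the opposite strand. The libraries were poly(A)-selected, and counts on a tRNA gene can come from an unprocessed precursor, so they are not read as tRNA levels.

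**Figure D2:**
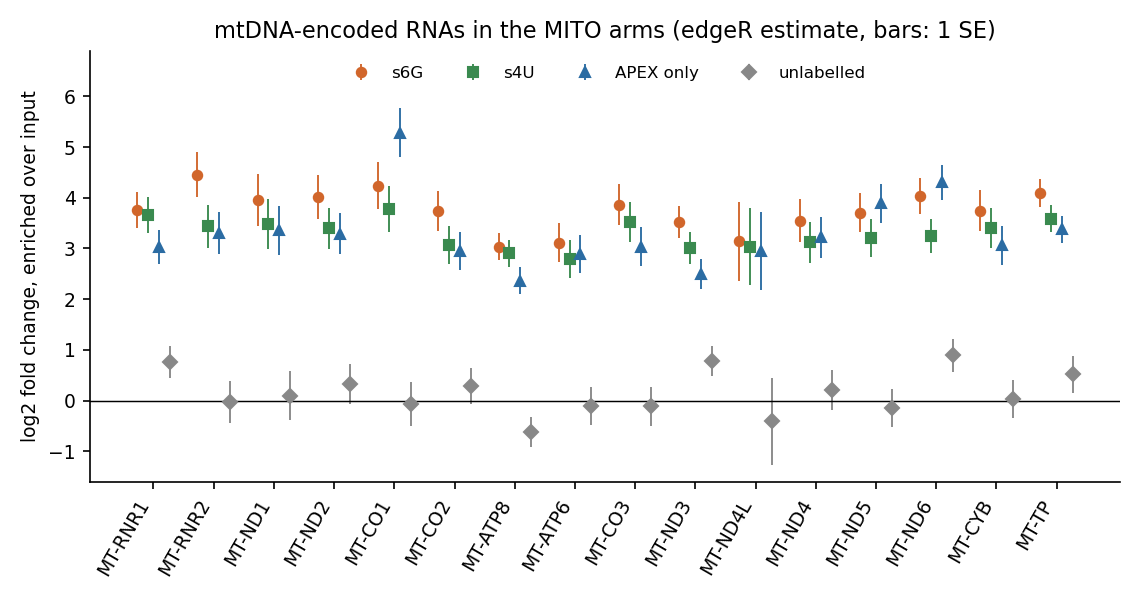
Log2 fold change of enriched over input (edgeR estimate, bars of 1 SE from the fit of all arms, n = 2 pairs per arm) for 16 mtDNA genes in the 4 MITO arms. The s6G, s4U and APEX-only arms lie between 2.37 and 5.28, and the unlabelled arm lies near 0, between -0.61 and 0.89.

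Per length, the order among mtDNA mRNAs changed little at the top. Length-corrected levels (TPM) were computed from the counts and the gene lengths recovered from the deposited table. In the inputs MT-CO2 (51286 and 55880 TPM) and MT-CO1 (48835 and 49288 TPM) stood highest. After enrichment MT-CO1 had 183676 and 137141 TPM and MT-CO2 109369 and 138780 TPM, and these 2 again stood highest, in an order that the replicates did not share. Lowest among the mRNAs in input replicate 1 was MT-ATP8 (6620 TPM) and in input replicate 2 MT-ND5 (7127 TPM). MT-ATP8 was lowest in both enriched libraries (10877 and 12317 TPM).

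The make-up of the mtDNA counts shifted by less than the total. MT-CO1 took 21.8% and 21.9% of mtDNA counts in the inputs and 32.5% and 22.8% after enrichment, so its rise was seen mainly in replicate 1. MT-RNR2 took 6.71% and 9.23% in the inputs and 8.88% and 14.8% after enrichment, and these ranges overlapped. MT-ATP6 took 7.98% and 6.42% in the inputs and 4.28% and 3.93% after enrichment, lower in both enriched libraries. MT-ND4 went the same way, from 14.4% and 13.2% to 10.6% and 10.7%.

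In the unlabelled arm the 13 mRNAs had a median log2 fold change of 0.03, and 2 were called higher (MT-ND3 and MT-ND6), beside 9.89% of all genes. The difference between the s6G and unlabelled enrichments was itself called for 12 of 13 mRNAs, with a median of 3.65, beside 6.94% of all genes called higher in that test. MT-ND4L was the exception (3.55, 95% interval 0.68 to 6.42, edgeR adjusted p = 0.12). Against the APEX-only arm no mtDNA gene was called by edgeR or DESeq2 (2 of 19 had an unadjusted p under 0.05), beside 0.0594% of all genes called higher. The differences ran from -1.05 for MT-CO1 (95% interval -2.20 to 0.10) to 1.03 for MT-ND3 (0.22 to 1.85) among mRNAs, and MT-RNR2 differed by 1.15 (0.04 to 2.26). These intervals are single-gene intervals and include differences of more than 2-fold. Against the s4U arm no gene of any kind was called with edgeR or DESeq2. There edgeR gave 341 of the 15151 genes an unadjusted p under 0.05, none of them an mtDNA gene. MT-RNR2 differed by 1.02 (-0.10 to 2.13) and MT-CO1 by 0.46 (-0.70 to 1.61).

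With s6G and the enzyme at other sites the mRNAs fell. The median log2 fold change was -1.69 for LMNB1 (13 of 13 called lower, beside 10.6% of genes tested in that fit), -2.09 for NES (11 of 13, beside 28.9%) and -2.63 for ERM (13 of 13, beside 30.4%). MT-CO1 had -2.17, -2.52 and -3.05 in these 3 comparisons. MT-ND5 and MT-ND6 moved least, with -0.83 and -0.68 for LMNB1 and -0.20 and -0.45 for NES. The fits were separate, and the differences between constructs were not tested.

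The nuclear genome holds inserted copies of mtDNA, and reads from mtDNA RNA can be counted on them where the sequences are near-identical. Of 9 such copies that were tested, 8 were called higher. MTCO1P12 (chromosome 1, 631074-632616), a copy of MT-CO1, went from 27.0 and 54.6 CPM to 593 and 1330 CPM (log2 fold change 4.53 ± 0.27). MTATP6P1 (chromosome 1, 633696-634376) went from 573 and 525 CPM to 3271 and 6986 CPM (3.12 ± 0.65). MTRNR2L12 and MTCO1P40 had no counts in the inputs and were at least 12.3-fold and 4.49-fold higher against the same floor. MTND4P12 (3.72 ± 0.49), MTCO3P12 (4.20 ± 0.78), MTCO2P12 (4.01 ± 0.64) and MTND1P23 (4.99 ± 0.98) were also called, and MTND2P28 was not (3.60 ± 0.82, edgeR adjusted p = 0.083). MTND4P12 and MTCO2P12, for example, went up as the mRNAs they copy did, and their reads cannot be told apart from mtDNA reads in these counts.

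Outside mtDNA, 510 genes were called higher and 506 lower, of which 502 and 506 are not listed copies. Among the 502, 219 were over 2-fold and 15 over 4-fold, with a median log2 fold change of 0.96, against 3.74 for the mtDNA mRNAs. The lower genes had a median of -0.95. Both enriched libraries lay above both inputs for 467 of the 502, beside 19.1% of all genes, and below both for 501 of the 506, beside 21.7%. At the edge of the threshold lay CTCF (0.71, adjusted p = 0.04996) inside and VAMP3 (-0.72, 0.0501) outside. The counts depend strongly on the block, since without it 27 nuclear genes were called higher and 4 lower (0.29% of all genes higher and 0.0264% lower with mtDNA genes included). Leaving out pair 1 left 87 higher and 24 lower, and leaving out pair 2 left 20 higher and 4 lower. Scaling by total counts, which the mtDNA share enters, moved the median of all genes to -0.89 and turned the split of all calls from 527 higher and 506 lower to 52 higher and 5660 lower. Nuclear changes are therefore relative to the bulk of nuclear RNA.

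**Figure D3:**
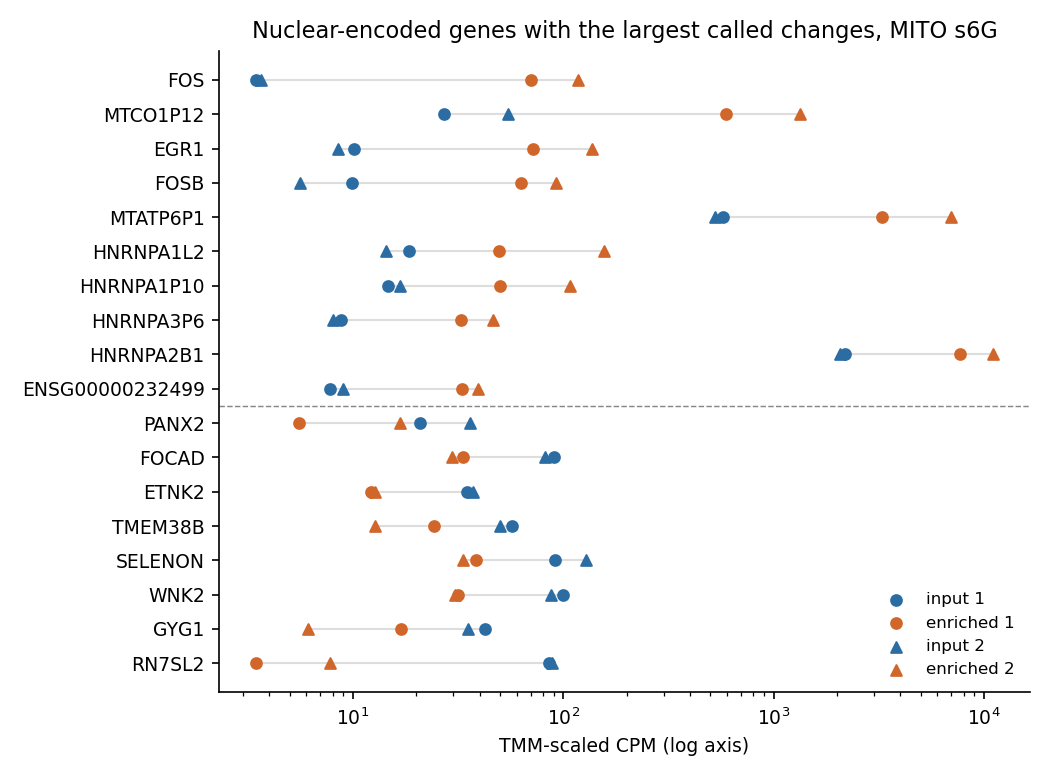
TMM-scaled CPM (log axis) of the nuclear-encoded genes, listed mtDNA copies included, with the highest (above the dashed line) and lowest log2 fold changes among called genes of mean log2 CPM 4 or more, in input (blue) and enriched (orange) libraries of replicates 1 (circles) and 2 (triangles). FOS runs from 3.48 and 3.66 to 70.4 and 117 CPM, RN7SL2 from 85.3 and 88.7 to 3.47 and 7.79 CPM, and the genes were picked because their libraries do not overlap.

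Immediate-early genes, which signalling switches on within minutes and whose mRNAs decay fast, were among the highest nuclear genes. FOS, an AP-1 subunit, had 3.48 and 3.66 CPM in the inputs and 70.4 and 117 CPM after enrichment (log2 fold change 4.68 ± 0.43, edgeR adjusted p = 3.5e-09). EGR1, a zinc finger transcription factor, had 10.2 and 8.53 CPM and then 71.8 and 136 CPM (3.42 ± 0.35). FOSB, a relative of FOS, had 9.90 and 5.61 CPM and then 63.1 and 92.4 CPM (3.31 ± 0.35). All 3 were low in both inputs and higher in both enriched libraries. FOS and FOSB were also called without the block (adjusted p = 0.0496 and 0.0395) and EGR1 was not (0.19). Each was called with either pair left out, with values from 2.63 for FOSB without pair 2 to 4.97 for FOS without pair 1.

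Because these 3 genes moved together, the 150 bases before their RefSeq start sites (GRCh38.p14, plus strand) are shown 5′ to 3′. Capitals mark 2 motifs that were searched on both strands, TGACGT (reverse complement ACGTCA, the core bound by CREB and ATF factors) and the CArG box of serum response factor (CC, then 6 bases that are A or T, then GG).
FOS, chr14:75278678-75278827: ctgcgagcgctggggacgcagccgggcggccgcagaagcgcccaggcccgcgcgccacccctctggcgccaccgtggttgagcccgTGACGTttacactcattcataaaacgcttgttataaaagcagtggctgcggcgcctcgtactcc
EGR1, chr5:138465329-138465478: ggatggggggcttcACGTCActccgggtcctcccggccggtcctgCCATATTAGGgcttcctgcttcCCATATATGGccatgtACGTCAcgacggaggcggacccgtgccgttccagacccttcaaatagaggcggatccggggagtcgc
FOSB, chr19:45467846-45467995: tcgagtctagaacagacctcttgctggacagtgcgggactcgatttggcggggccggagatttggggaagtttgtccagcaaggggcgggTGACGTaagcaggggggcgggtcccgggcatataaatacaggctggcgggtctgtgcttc
TGACGT begins 64 bases before the start of FOS, 60 before FOSB, and 136 and 67 before EGR1, which also holds CArG boxes at 105 and 83 bases. In windows of 300 bases (250 before to 50 after the start), TGACGT was in 7.98% of 35116 RefSeq promoters and a CArG box in 1.29%. Promoters were matched for 28 of the 39 listed immediate-early genes, some with more than 1 start. TGACGT was in 5 of 13 promoters of called members, in 2 of 16 of tested members that were not called and in 3 of 6 of members not tested. A CArG box was in 1 promoter of each of these 3 sets. The matches are letters in a window and show no binding. Sequence further than 250 bases before a start was not searched, so a gene without a match may hold the motif there.

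Of 33 tested immediate-early genes, 14 were called higher (42.4%, beside 3.48% of all genes) and none lower (beside 3.34%). A log2 fold change above 0 was seen for 32 (median 0.90). JUN, the AP-1 partner of FOS, stood at 1130 and 2059 CPM in the inputs and at 2222 and 4953 CPM after enrichment (1.12 ± 0.24). ATF3, a stress-induced factor, went from 252 and 215 CPM to 476 and 574 CPM (1.17 ± 0.23). GADD45B, JUNB, CCN1, IER2, DUSP1, JUND, KLF6, IER5 and MCL1 were the other called members, with log2 fold changes from 0.88 to 1.59. MYC, also an early gene, had -0.03 ± 0.23 and was not called. The list's count fell to 5 without pair 1, to 4 without pair 2 and to 2 without the block, and under total-count scaling its median was -0.02. JUN, ATF3 and the other called members beyond FOS, EGR1 and FOSB, and MYC, were named after their values were seen. For JUN the enriched library of replicate 1 lay close to the input of replicate 2, and the rise was seen within each pair.

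The same list had a median of 0.66 and 8 members called higher in the s4U arm (beside 1.76% of all genes), and 0.07 and 3 in the APEX-only arm (beside 4.33%). In the unlabelled arm the median was -0.62, with 1 called higher (beside 9.89%) and 3 lower (beside 10.6%). The difference from the unlabelled arm was called for 12 of the 33 (beside 6.94% of all genes called higher in that test). That from the APEX-only arm was called by edgeR for none, with a median difference of 0.84, and 14 of the 33 had an unadjusted p under 0.05, all higher with s6G. DESeq2 called 1. FOS differed by 2.34 ± 0.65 and FOSB by 1.79 ± 0.54 from the APEX-only arm (edgeR adjusted p = 0.21 and 0.22). In a fit without the unlabelled arm, 7 immediate-early genes were called higher than in the APEX-only arm, beside 409 of the 13865 genes tested. The enriched unlabelled library of replicate 1 had few counts, and 4 list members have a fitted log2 fold change below -5 in that arm. With the enzyme at other sites and s6G, medians were 0.43 for LMNB1 (4 called higher, beside 8.35%), 1.71 for NES (27, beside 30.9%) and 1.12 for ERM (25, beside 36.3%).

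Signalling feedback genes and other short-lived regulators showed 6 of 34 higher (17.6%) and none lower (median 0.50). Over all tested genes 3.48% were called higher and 3.34% lower. RGS2, which limits G protein signalling, had 1.40 ± 0.37, and BHLHE40, a circadian repressor, 1.09 ± 0.33. In the integrated stress response list 4 of 23 rose (17.4%) and none fell. DDIT4, an mTOR inhibitor, went from 153 and 114 CPM to 370 and 287 CPM (1.31 ± 0.23), and DDIT3, encoding CHOP, from 7.22 and 3.17 CPM to 21.5 and 13.4 CPM (1.77 ± 0.45). STC2, a secreted stress glycoprotein, had 327 and 75.6 CPM in the inputs and 578 and 156 CPM after enrichment (0.93 ± 0.23), so its groups overlapped while both pairs rose. Among p53 targets 1 of 23 was called, CCNG1, which fell (-1.27 ± 0.24). That is 4.35% of the list, near the share of all genes called lower. Of 19 heat shock and NRF2 genes, 2 rose (10.5%) and 1 fell (5.3%), with DNAJB1 at 0.90 ± 0.24.

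Genes for hnRNPs, abundant nuclear proteins that package pre-mRNA, were also among the highest genes. This family was taken by symbol after its values were seen. Of 36 tested genes and pseudogenes whose symbol starts with HNRNP, 19 were called higher and none lower (median 1.47), beside 3.48% and 3.34% of all tested genes. HNRNPA2B1 (chromosome 7, 26189927-26200746) rose from 2183 and 2069 CPM to 7725 and 11030 CPM (log2 fold change 2.12 ± 0.30, edgeR adjusted p = 9.6e-08). Of members named after their values were seen, HNRNPA1 rose from 2276 and 2053 CPM to 7028 and 10429 CPM (1.99 ± 0.30), HNRNPH3 from 207 and 218 CPM to 696 and 1182 CPM (2.09 ± 0.24), and HNRNPA3 from 758 and 760 CPM to 2304 and 3748 CPM (1.95 ± 0.27). For these 4 the inputs lay close together and replicate 2 had the higher enriched value. Each was also called without the block.

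The family was not uniform. HNRNPK had 953 and 776 CPM in the inputs and 1143 and 801 CPM after enrichment (0.16 ± 0.24), and HNRNPC had 1370 and 1139 CPM and then 1157 and 696 CPM (-0.48 ± 0.24), neither called. HNRNPF (0.82 ± 0.23), HNRNPDL (0.86 ± 0.25) and HNRNPU (0.95 ± 0.26) rose by less than 2-fold. HNRNPA1L2 (2.46 ± 0.31), HNRNPA1P10 (2.25 ± 0.28) and HNRNPA3P6 (2.20 ± 0.34) are processed copies in the HNRNPA1 and HNRNPA3 families, and reads of the parent gene may be counted on them. Of the 20 protein-coding members 16 were called, and of the 16 pseudogenes 3.

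In the other MITO arms the hnRNP median was 0.98 with s4U (15 called higher, beside 1.76% of all genes) and 1.30 in the APEX-only arm (19, beside 4.33%). In the unlabelled arm it was -0.14, with 5 called lower (beside 10.6%) and none higher (beside 9.89%). The difference from the unlabelled arm was called for 19 of 36 (beside 6.94% of all genes called higher in that test). That from the APEX-only arm was called for none with edgeR or DESeq2 (median difference 0.14, 1 gene at an unadjusted p under 0.05). With s6G at the other sites the medians were below 0, at -0.20 for LMNB1, -0.62 for NES and -0.54 for ERM. HNRNPA2B1 had 0.22, -0.78 and -1.11 there. Members moved both ways, with 4 called higher and 2 lower for LMNB1, 6 and 16 for NES, and 5 and 20 for ERM, and HNRNPF had 1.68 for NES and 1.36 for ERM. Without pair 1 the family had 15 called members, without pair 2 it had 7, and without the block 11. Under total-count scaling 13 were called and the median was 0.56.

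**Figure D4:**
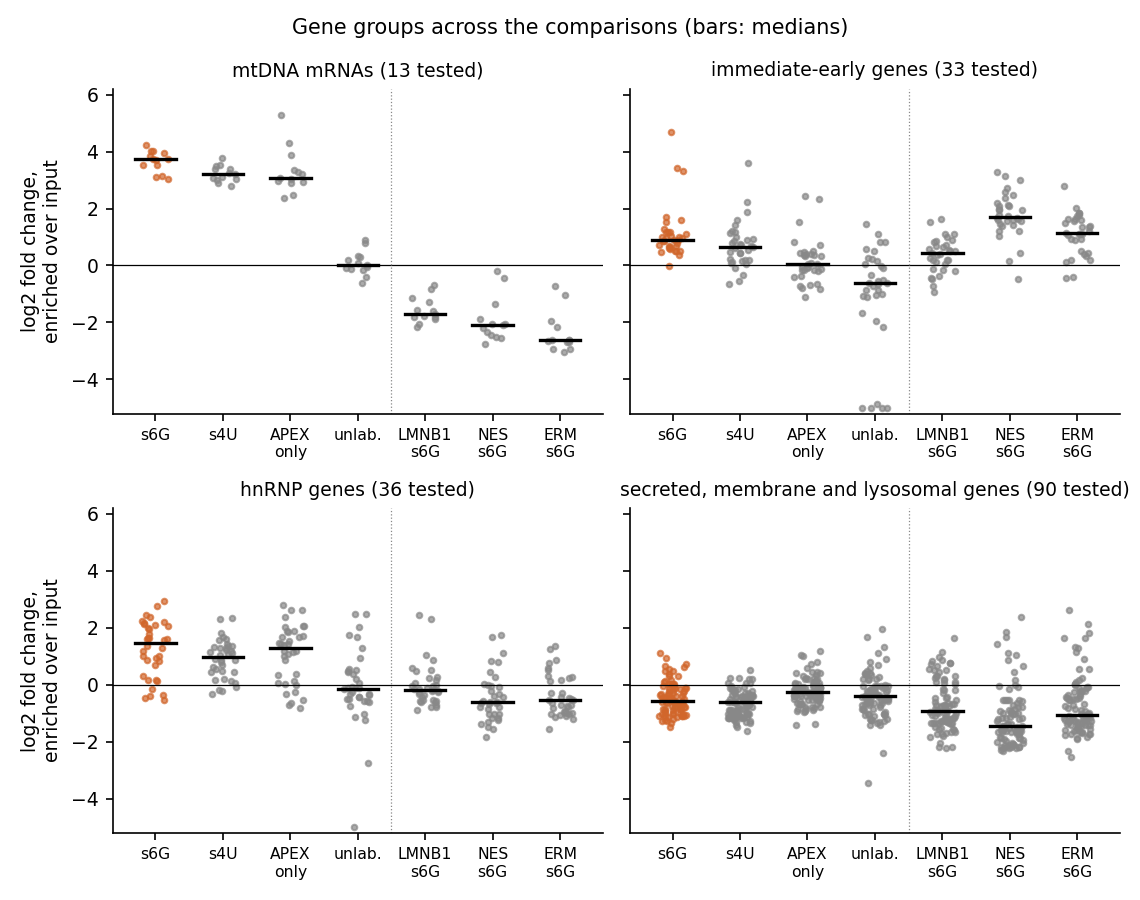
Log2 fold change of enriched over input for each gene (points) in 4 groups, with the median (bar), across the 4 MITO arms (left of the dotted line) and the LMNB1, NES and ERM s6G comparisons; in the unlabelled arm 4 immediate-early genes and 1 hnRNP gene below -5 are drawn at -5. The medians of mtDNA mRNAs (3.74) and hnRNP genes (1.47) are high with s6G in the MITO construct and below 0 at the other sites, while the median of immediate-early genes is above 0 at all 4 sites, with single genes on either side.

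Further lists of splicing factor genes and noncoding RNAs had members that rose and none that fell, beside 3.48% of all genes called higher and 3.34% lower. Among SR protein and speckle genes with detained introns, 7 of 33 rose and none fell (median 0.57). SRSF5 had 1.11 ± 0.25, PNN 1.08 ± 0.24 and LUC7L3 1.02 ± 0.25, all 3 encoding splicing factors. Of 21 small nucleolar RNA host genes 6 rose and none fell (median 0.56), with SNHG8 at 1.24 ± 0.24, SNHG19 at 1.02 ± 0.29 and SNHG7 at 0.96 ± 0.25. The list's median was 0.91 in the APEX-only arm, with 12 called higher (beside 4.33% of all genes) and 1 lower. In the unlabelled arm it was 0.58, with 4 called higher (beside 9.89%) and 1 lower (beside 10.6%). The difference between s6G and the unlabelled arm was called higher for 0 host genes, beside 6.94% of all genes. SNHG8 was also called higher in the unlabelled arm (1.29). NEAT1, the scaffold of paraspeckles, had 36.4 and 145 CPM in the inputs and 60.7 and 317 CPM after enrichment (0.96 ± 0.24), so the replicates differed more than the pairs, and it too was called in the unlabelled arm (0.83). NORAD, a largely cytoplasmic noncoding RNA, had 0.85 ± 0.24. NEAT1 and NORAD were the only 2 called of 11 tested genes listed as nuclear long noncoding RNAs. That list had a median of 0.02, with 6 of 11 above 0. None of 56 KRAB zinc finger genes was called by edgeR or DESeq2 (median 0.45, 13 at an unadjusted p under 0.05, all higher), and ZNF121, the most abundant, had 0.25 ± 0.23. Of 21 replication-dependent histone genes none was called by either tool (median 0.54, 2 at an unadjusted p under 0.05), and H2BC12 had 0.02 ± 0.28. Without the block no member of the detained-intron or host-gene lists was called, and nearly all of these calls also needed both pairs.

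Of 33 nuclear complex I subunits 2 rose and none fell (median 0.09), NDUFS6 with 1.19 ± 0.24 and NDUFB3 with 0.81 ± 0.23. Of 24 subunits of complexes II, III and IV (median -0.14), SDHA (0.80 ± 0.25) and COX6C (0.77 ± 0.23) rose. COX6C was called higher in the unlabelled arm as well (1.65). Of 16 ATP synthase genes (median -0.07) ATP5IF1, the inhibitory factor, rose (0.74 ± 0.24). Mitochondrial ribosomal proteins had 3 of 74 higher (median 0.03), MRPL51, MRPS26 and MRPS21, with values from 0.71 to 0.88. These shares of 4.05% to 8.33% compare with 3.48% of all genes called higher. Without the block none of these 8 genes was called. In the unlabelled arm the medians were 0.30 for complex I and 0.46 for complexes II, III and IV. They were 0.56 for ATP synthase and 0.03 for mitochondrial ribosomal proteins. In the same order 5, 6, 3 and 4 members were called higher there, beside 9.89% of all genes. Called lower were 1, 1, 1 and 3, beside 10.6%.

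Among 41 genes for mtDNA maintenance, transcription and RNA processing 5 rose (12.2%) and 1 fell (2.4%). Over all tested genes 3.48% were called higher and 3.34% lower. MTERF3, a regulator of mtDNA transcription, had 1.28 ± 0.32, TOP1MT, the mitochondrial topoisomerase, 1.21 ± 0.24, and TWNK, the mtDNA helicase, 0.99 ± 0.23. TWNK stood at 131 and 70.7 CPM in the inputs and at 250 and 147 CPM after enrichment. Of 30 genes for import, chaperones and proteases 4 rose and 2 fell, with GRPEL1, a cochaperone of matrix HSP70, at 1.04 ± 0.23, TIMM17A, an inner membrane translocase subunit, at 0.97 ± 0.23, and TOMM7, of the outer membrane translocase, at 0.82 ± 0.24. TOMM7 was called in the unlabelled arm too (1.07). Enzymes of the tricarboxylic acid cycle and matrix split, with 7 of 32 lower and 4 higher. GOT2, the mitochondrial aspartate aminotransferase, fell from 252 and 246 CPM to 120 and 102 CPM (-1.16 ± 0.23), and ALDH18A1, of proline synthesis, had -0.84 ± 0.23. Without the block 0 of these enzymes were called lower and 0 higher, and MTERF3 and GRPEL1 were not called either (edgeR adjusted p = 0.30 and 0.46).

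**Figure D5:**
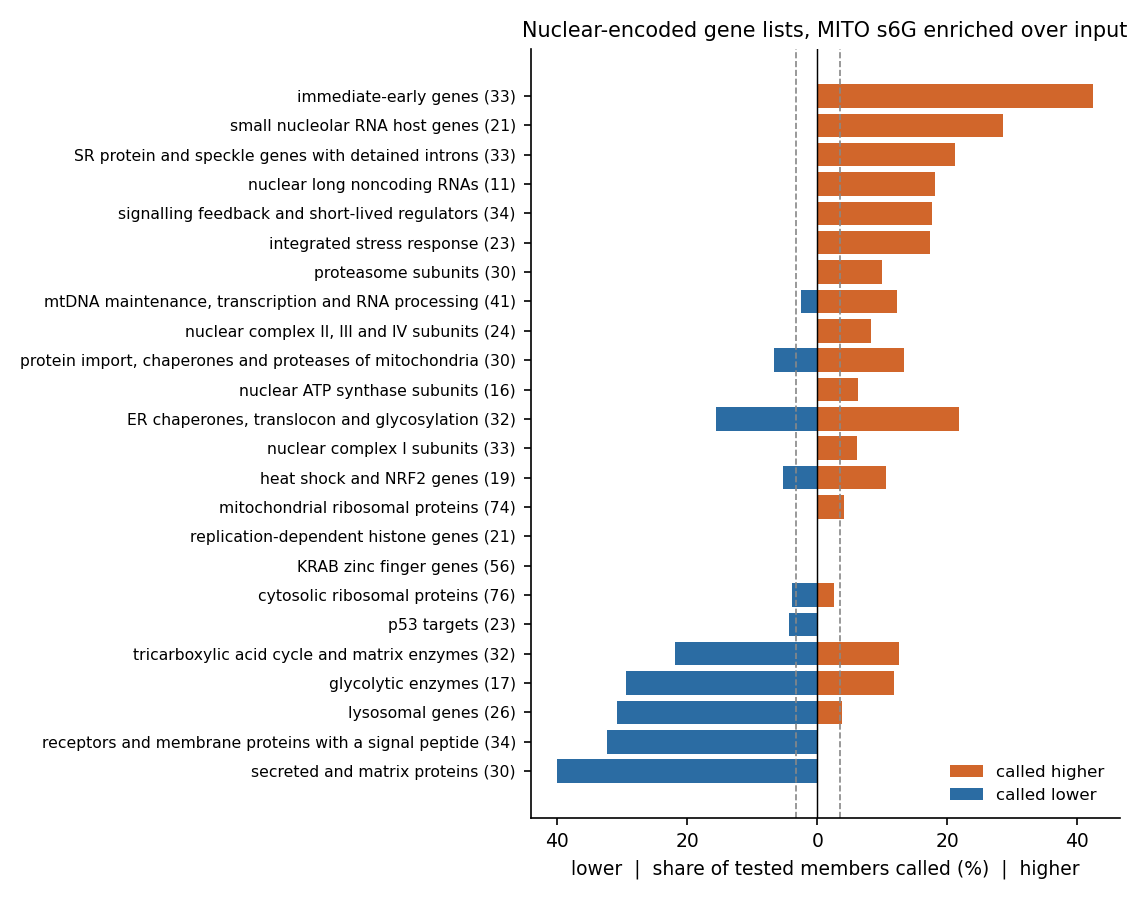
Share of tested members called higher (orange, right) or lower (blue, left), in percent, for lists with at least 10 tested nuclear-encoded genes, whose number is in brackets; dashed lines mark the shares among all tested genes (3.48% higher, 3.34% lower). Immediate-early genes (14 of 33 higher) and secreted and matrix proteins (12 of 30 lower) are at the ends.

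Among genes for proteins made at the endoplasmic reticulum many fell, beside 3.34% of all genes called lower. Of 30 secreted and matrix protein genes 12 fell and none rose (median -0.62). NID1, a basement membrane protein, went from 279 and 336 CPM to 131 and 132 CPM (-1.22 ± 0.25), NID2, its relative, had -1.34 ± 0.31, and SPARC, a collagen-binding protein, -1.29 ± 0.29. Of 34 receptors and membrane proteins 11 fell and none rose (median -0.57), with EGFR at -1.47 ± 0.42, PLXND1, a semaphorin receptor, at -1.26 ± 0.27 and NOTCH3 at -1.23 ± 0.25. Of 26 lysosomal genes 8 fell and 1 rose, with the proteases and hydrolases CTSB at -1.12 ± 0.25, LIPA at -1.11 ± 0.25 and MAN2B1 at -1.10 ± 0.28. ER chaperone, translocon and glycosylation genes split, with 7 of 32 higher (21.9%, beside 3.48% of all genes) and 5 lower (15.6%). HSPA5, the chaperone BiP, rose from 873 and 559 CPM to 1723 and 1155 CPM (1.01 ± 0.24), SDF2L1 had 1.57 ± 0.24 and SEC63 0.97 ± 0.24.

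The secreted, membrane and lysosomal lists together hold 90 tested genes, of which 31 were called lower and 1 higher. Their median was -0.59 with s6G, -0.62 with s4U (35 lower, beside 3.21% of all genes), -0.25 in the APEX-only arm (10, beside 2.82%) and -0.41 in the unlabelled arm (19, beside 10.6%). They were lower also at the other sites, with medians of -0.93 for LMNB1, -1.45 for NES and -1.05 for ERM. The difference between s6G and the unlabelled arm had a median of -0.19 over them. In that test 1 secreted, 3 membrane and 1 lysosomal gene were called lower, beside 3.47% of all genes. Called higher were 6 of the 90, beside 6.94%. With either pair left out, no secreted or membrane gene was called, and lysosomal genes numbered 2 without pair 1 and 0 without pair 2. The same holds without the block, where none of the 3 lists had a called member.

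Among abundant cytosolic mRNAs, glycolytic enzymes had 5 of 17 lower (29.4%, beside 3.34% of all genes) and 2 higher (11.8%, beside 3.48%). ALDOA went from 1652 and 1680 CPM to 752 and 946 CPM (-0.98 ± 0.24), GAPDH from 1718 and 1533 CPM to 959 and 763 CPM (-0.92 ± 0.25) and ENO1 from 3229 and 2484 CPM to 2002 and 1303 CPM (-0.81 ± 0.26). The list's median was -0.22 with s6G and -0.60 in the unlabelled arm, where 6 were called lower (beside 10.6%) and 0 higher. GAPDH was called lower there (-0.95), and ALDOA (-0.56) and ENO1 (-0.67) were not. The difference between s6G and the unlabelled arm was called for none of these genes (-0.42 for ALDOA, 0.02 for GAPDH, -0.14 for ENO1). Of 76 cytosolic ribosomal protein genes 3 were lower (3.9%) and 2 higher (2.6%), near the shares over all genes. RPSA (-0.86 ± 0.25) and RPLP0 (-0.76 ± 0.25) were among the lower members. Proteasome subunits had 3 of 30 higher and none lower, with PSMC5 at 1.05 ± 0.23, PSMC3 at 0.74 ± 0.24 and PSMB6 at 0.70 ± 0.23. NEFM, a neurofilament gene that HEK293T expresses, rose from 219 and 293 CPM to 458 and 982 CPM (1.41 ± 0.29).

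Among genes called and averaging at least 4 on the log2 CPM scale, with no overlap between groups, RN7SL2, the RNA of the signal recognition particle, had the lowest value. It fell from 85.3 and 88.7 CPM to 3.47 and 7.79 CPM (log2 fold change -4.04 ± 0.39, edgeR adjusted p = 5.0e-10). Its near-identical copy RN7SL3 had 8.02 and 8.53 CPM and then 1.04 and 0 CPM (-3.67 ± 0.81), and reads may be shared between them. RN7SL2 was also lower in the s4U arm (-2.10) and the APEX-only arm (-5.53), and not called in the unlabelled arm (-0.45). Others among the lowest under the same limits were GYG1, which primes glycogen (-1.74 ± 0.32), the kinase gene WNK2 (-1.59 ± 0.26), the ER selenoprotein gene SELENON (-1.57 ± 0.25), TMEM38B, an ER cation channel (-1.53 ± 0.29), ETNK2, ethanolamine kinase (-1.52 ± 0.32), FOCAD (-1.46 ± 0.25) and PANX2, a channel (-1.45 ± 0.35). WNK2 went from 99.2 and 87.3 CPM to 31.6 and 30.6 CPM, and SELENON, FOCAD and WNK2 were called without the block too.

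The 510 higher and 506 lower nuclear genes were followed into the other comparisons, which share no libraries with this one. All MITO arms entered the same fit. In the s4U arm 504 of the 510 were above 0 (beside 50.4% of all nuclear genes) and 154 were called higher. These 154 are 30.2% of the higher genes (beside 1.65% of all nuclear genes) and 61.9% of the nuclear genes called higher with s4U. In the APEX-only arm 458 were above 0 (beside 48.8%) and 286 were called higher. These 286 are 56.1% of the set (beside 4.22% of all nuclear genes) and 44.8% of that arm's nuclear genes called higher. In the unlabelled arm 203 were above 0 (beside 44.9%), with 22 called higher and 50 lower. These are 4.31% and 9.80% of the set, beside 9.88% and 10.6% of all nuclear genes. At the lamina 113 of 505 measured were called higher (22.4%, beside 9.43% of all nuclear genes measured there) and 11 lower (2.18%, beside 11.9%). In the cytosol 299 of 507 were called higher (59.0%, beside 33.1%) and 112 lower (22.1%, beside 31.2%). At the ER 305 of 507 were called higher (60.2%, beside 37.95%) and 131 lower (25.8%, beside 32.9%).

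Of the 506 lower genes, 502 were below 0 in the s4U arm and 248 were called lower, beside 3.21% of all nuclear genes. In the APEX-only arm 77 were called lower (beside 2.82%) and in the unlabelled arm 136, or 26.9% of the set, beside 10.6% of all nuclear genes. With s6G at other sites most were called lower, 408 for LMNB1 (80.6%, beside 11.9% of all nuclear genes measured), 469 for NES (92.7%, beside 31.2%) and 478 for ERM (94.5%, beside 32.9%). The lower genes had a median gene span of 35.3 kb and the higher genes 15.2 kb, beside 30.2 kb over all nuclear genes tested. Quartiles were 6.57 and 36.8 kb for the higher and 15.9 and 82.4 kb for the lower genes, so the spans overlapped widely. The part of gene length in these changes was not tested.

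The test of s6G against the APEX-only arm called 9 genes, all higher with s6G. They are NUDT19, CDC42EP4, BACH1, CDCA4, HPS6, TLNRD1, FEM1B, RHOB and PAFAH1B2, with differences from 1.47 to 1.97 on the log2 scale. They were named because they are the whole count. For NUDT19, a peroxisomal hydrolase gene, s6G gave 0.33 ± 0.27 and the APEX-only arm -1.65 ± 0.29. HPS6, of lysosome-related organelle biogenesis, had 1.19 ± 0.27 with s6G and -0.46 ± 0.26 without. FEM1B, a ubiquitin ligase adaptor, had 0.92 ± 0.23 and -0.60 ± 0.23. In 7 of the 9 the APEX-only arm was called lower, and of the 9 only HPS6 and FEM1B were called higher with s6G. The count moved from 0 to 536 across the alternatives run, with 0 when either s6G pair was left out and 1 when either APEX-only pair was.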

How the data were processed

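RNA from HEK293T cells was sequenced before (input) and after (enriched) streptavidin pull-down, from poly(A)-selected RNA with 11 PCR cycles for inputs and 15 for enriched libraries, per the labels. The authors deposited read counts per gene (57992 identifiers, 40 libraries), made with HISAT2 2.1.0 and HTSeq 0.7.2 on GRCh38, per the submitters' processing notes; annotation and strand setting: not given in the sources used here. The authors also deposited group values on a log2 scale (log2 of summed TPM plus 1), used here only to recover gene lengths, which were genomic spans; TPM was computed from them for mtDNA genes, which lack introns.

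Counts of the 16 MITO libraries entered 1 edgeR 4.0.16 quasi-likelihood fit (R 4.3.3, limma 3.58.1; default expression filter, TMM scaling), with 1 enrichment term per arm and a block for each input and enriched pair. The series design states that libraries of 1 number are the same replicate before and after enrichment; deviations within s6G pairs correlated at 0.534. This leaves 4 residual degrees of freedom. Moderation across genes raised the total, for example to 92.0 for HNRNPA2B1 and 5.01 for MT-ND4L. ERM with NES, and LMNB1, were fitted separately on 12 libraries each. The pipeline was tested on simulated data. Calls used a Benjamini-Hochberg adjusted p of 0.05. Alternatives were no block, other scalings and filters, DESeq2 1.42.0, other sets of libraries and each pair left out. Named genes were all tested mtDNA genes and listed copies, the 10 highest and 8 lowest called nuclear genes (mean log2 CPM 4 or more, input and enriched libraries not overlapping), up to 3 called genes of each of 34 lists in its commoner direction, and the most abundant gene of lists without calls; others are said to be named afterwards. The members and lists were chosen with earlier results of these data known. Promoter sequences are from RefSeq GRCh38.p14. Counts are reads without molecular identifiers. A few genes that the naming rule picks are not reported here.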

Additional observations from a re-analysis of the deposited data

Results flagged for a closer look

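Enrichment differed between the s6G and unlabelled arms by the test of the difference itself for 1051 genes that were higher and 525 that were lower with s6G. Among mtDNA genes the differences (log2, s6G minus unlabelled) were 4.30 for MT-CO1, 3.45 for MT-CO2, 3.98 for MT-CO3, 3.71 for MT-CYB, 3.22 for MT-ATP6 and 3.65 for MT-ATP8. For complex I they were 3.86 for MT-ND1, 3.68 for MT-ND2, 2.75 for MT-ND3, 3.34 for MT-ND4, 3.85 for MT-ND5 and 3.15 for MT-ND6. MT-RNR1 differed by 3.00, MT-RNR2 by 4.49, MT-TP by 3.58 and the copy MTCO1P12 by 3.82.

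Nuclear genes named in the report differed in the same test. FOS had 9.56 and MTRNR2L12, another copy, 12.35, fitted values that depend on the prior count because unlabelled enriched libraries were at or near 0. EGR1 differed by 4.53 and FOSB by 3.08. Among hnRNP genes HNRNPA2B1 differed by 2.43, HNRNPA1L2 by 1.92 and HNRNPA1P10 by 1.75, and the unnamed gene ENSG00000232499 by 2.34. DDIT4 (2.45), HSPA5 (1.90), SRSF5 (1.70), NEFM (1.67), PNN (1.59), SDHA (1.38), SEC63 (1.37), STC2 (1.30), LUC7L3 (1.30), DNAJB1 (1.18), NORAD (1.14) and MRPS26 (1.09) were also higher. RN7SL2 (-3.60), GYG1 (-1.59), WNK2 (-1.41), FOCAD (-1.29) and RPSA (-1.04) were lower.

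Between the s6G and APEX-only arms 9 genes differed, NUDT19 by 1.97, CDC42EP4 by 1.96, BACH1 by 1.81, CDCA4 by 1.67, HPS6 by 1.65, TLNRD1 by 1.64, FEM1B by 1.52, RHOB by 1.51 and PAFAH1B2 by 1.47. The mtDNA share rose in both MITO s6G pairs and fell in every s6G pair of the other constructs, to a mean of 1.92% for LMNB1, 1.82% for NES and 1.77% for ERM. That difference in direction between constructs was not tested.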

How the results depend on the processing

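The called mtDNA genes numbered 16 to 18 over the alternatives run, their mRNA median ran from 2.83 (total counts) to 4.37 (without replicate 1) on the log2 scale, and the rise in mtDNA share ran from 30.5 to 52.3 points. Counts of nuclear genes and of differences between arms moved by more than 1.5 times, and the cause was not tested. Without the replicate block, 48 genes were called (27 nuclear higher, 4 lower), 57 against the unlabelled arm and 0 against the APEX-only arm. Total-count scaling gave 5712 (34 nuclear higher, 5660 lower), 2662 and 0. Only the 4 compared libraries, or the 2 compared arms, gave 3596 (1852 and 1726), 221, 520 and, against s4U, 2. Without the unlabelled arm these were 2727 (1339 and 1370), 536 and 2. Against the APEX-only arm, RLE scaling and nuclear-only TMM each gave 25, no filter 26, a stricter filter 0 and DESeq2 16. Leaving out an s6G pair gave 41 to 129 genes (20 to 87 nuclear higher, 4 to 24 lower), 393 to 424 against the unlabelled and 0 against the APEX-only arm; the remaining pair is then assumed to vary like the other arms. Leaving out an unlabelled pair gave 2854 to 2878 and an APEX-only pair 1, both chosen after seeing the data. Under total counts 13 named genes turned below 0: ATP5IF1 -0.18, COX6C -0.15, DNAJA1 -0.20, DNAJB1 -0.0069, MRPL51 -0.032, MRPS21 -0.20, MRPS26 -0.10, NDUFB3 -0.11, NORAD -0.060, PSMB6 -0.21, PSMC3 -0.17, SDHA -0.11 and TOMM7 -0.090. Of 104 named genes, 65 lost their call without the block, 54 without replicate 1 and 73 without replicate 2. Precision is limited by 2 pairs per arm and by 123341 counts in 1 unlabelled enriched library.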
